A study of Mus musculus with 6 samples.

Results

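AP-1 is a family of transcription factors, and the RNA signal of its genes *Fos*, *Fosb*, *Fosl1*, *Fosl2*, *Jun*, *Junb*, *Jund*, *Jdp2*, *Batf* and *Batf3* was compared in osteoclasts with and without Cre recombinase aimed at *Ano1*. The 10 genes were picked by name out of 37074 gene names on the array, and 15 of its 56605 distinct probes carry those names. Osteoclasts, the cells that resorb bone, were grown out of the bone marrow of 3 *Ano1*fl/fl mice and of 3 *Ctsk-Cre;Ano1*fl/fl littermates and received the cytokine RANKL for 5 days. In both groups the chloride channel gene *Ano1* is flanked by loxP sites. In the second group Cre recombinase, driven by the cathepsin K gene *Ctsk*, is meant to remove it, and that gene is active once cells become osteoclasts rather than in their precursors. The *Ano1*fl/fl mice lack Cre, so the comparison does not separate the loss of *Ano1* from the presence of Cre. RNA of each culture went onto 1 one-colour Agilent array, where a single dye gives the brightness of each spot. This makes 3 arrays per group and 6 in all.

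AP-1 proteins bind DNA as pairs held together by a leucine zipper, next to a basic stretch that touches the DNA, a design called bZIP. Fos proteins pair with Jun proteins and not with each other, whereas Jun proteins also pair among themselves. The pairs bind the sequence TGACTCA and, with other bZIP partners, TGACGTCA. In osteoclast precursors RANKL raises c-Fos, the product of *Fos*, and c-Fos and NFATc1 together turn on genes of the mature osteoclast. Mice without c-Fos form no osteoclasts. Several of these genes, *Fos* first among them, are also immediate early genes, which respond within minutes to growth factors, stress and the handling of cells.

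*Ano1* cannot show which arrays hold the knockout. Its probe was below background on all 6 arrays, with processed signals of 3.28, 3.22 and 3.91 in the *Ano1*fl/fl group and 3.23, 3.25 and 3.81 in the *Ctsk-Cre;Ano1*fl/fl group, so every direction here rests on the labels of the arrays. For osteoclast marker genes that direction opposes the one the study gives from PCR, both in bone and in osteoclast cultures of these genotypes. For c-Fos the study gives less protein in *Ctsk-Cre;Ano1*fl/fl osteoclasts, which is the direction of the *Fos* signal here. The study also gives less NFATc1 protein in that genotype. Here *Ctsk*, *Mmp9*, *Acp5* and *Nfatc1*, all measured by the study's PCR, were higher in the group labelled *Ctsk-Cre;Ano1*fl/fl. Their log2 differences were 3.17, 4.36, 0.84 and 0.53. An exchange of the labels would turn the sign of every difference given here, and it was not tested. All arrays shared 1 slide and 1 scan, with 33480 to 34951 spots well above background and none saturated. Log2 signals of arrays correlated at 0.9945 to 0.9969 within a group and at 0.947 to 0.951 between groups. Signals of different probes depend on their sequence, so no AP-1 gene is ranked against another by its level.

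All 10 genes were tested, since each had a probe well above background on the 3 arrays of 1 group or of both. *Batf*, *Fosl1*, *Fosl2*, *Jund*, *Batf3* and *Junb* were higher in the *Ctsk-Cre;Ano1*fl/fl group, *Fos* was lower, and *Fosb*, *Jun* and *Jdp2* did not pass the test. The test was limma, a linear model whose spread is moderated across genes, and its p, after Benjamini-Hochberg adjustment for 20645 tested genes, had to be under 0.05 for a gene to be called. The 6 higher genes stand beside 23.4% of all tested genes that were higher, and the 1 lower gene beside 29.0% that were lower. In either direction 70.0% of the AP-1 genes and 52.4% of all tested genes were called. The signals of the groups did not overlap for 8 of the 10 genes, against 64.0% of all tested genes. More than 2-fold as well were 3 of the higher genes, *Batf*, *Fosl1* and *Fosl2*, and *Fos*, beside 9.88% of all tested genes that were higher and 7.19% that were lower by that rule. The median log2 difference was 0.56 over the AP-1 genes and -0.06 over all tested genes.

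**Figure D1:**
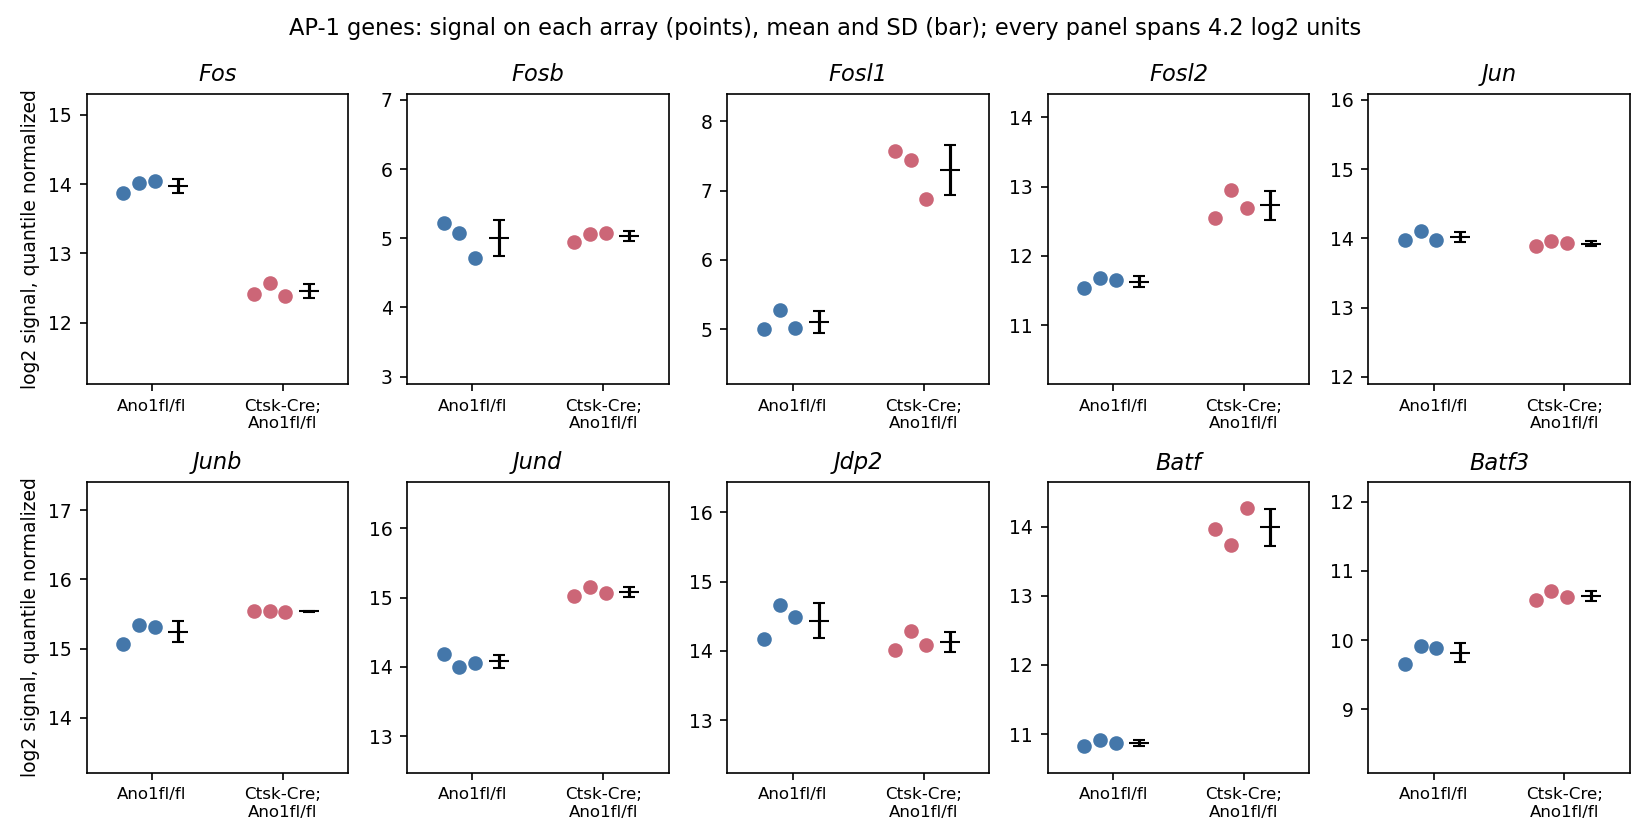
Each panel shows 1 AP-1 gene, with the log2 signal after quantile normalization on the vertical axis, 1 point per array, and the mean with its SD as a bar beside the points of each group (n = 3). *Batf*, *Fosl1*, *Fosl2*, *Jund* and *Batf3* sit higher and *Fos* lower in the *Ctsk-Cre;Ano1*fl/fl group with a clear gap, whereas *Fosb* and *Jdp2* overlap. Every panel spans the same number of log2 units.

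The promoters of 4 genes are shown because their RNA took different courses: *Fos* fell, *Batf* and *Fosl2* rose, and *Jun* did not pass the test. *Fos* and *Batf* also lie close together on chromosome 12. The sequences are the 150 bases before the transcription start in RefSeq on the build GRCm38.p6, written 5′ to 3′ along the gene. Capitals mark TGACG, which is the first part of TGACGTCA, the variant TGACATCA, and the GC box GGGCGG, which reads CCGCCC where it lies on the other strand. The window of *Fos* is chr12:85473740-85473889 on the plus strand, that of *Batf* chr12:85686570-85686719 on the plus strand, that of *Fosl2* chr5:32136322-32136471 on the plus strand and that of *Jun* chr4:95052223-95052372 on the minus strand.
Fos: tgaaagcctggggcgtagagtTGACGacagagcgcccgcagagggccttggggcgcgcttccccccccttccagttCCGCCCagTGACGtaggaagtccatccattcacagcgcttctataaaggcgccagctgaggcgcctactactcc
Batf: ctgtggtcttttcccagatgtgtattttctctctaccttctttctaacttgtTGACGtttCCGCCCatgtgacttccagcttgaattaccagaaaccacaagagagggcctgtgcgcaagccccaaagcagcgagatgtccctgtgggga
Fosl2: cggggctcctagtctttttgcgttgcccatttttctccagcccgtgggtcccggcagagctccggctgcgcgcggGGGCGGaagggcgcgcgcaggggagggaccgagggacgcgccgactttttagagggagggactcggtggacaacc
Jun: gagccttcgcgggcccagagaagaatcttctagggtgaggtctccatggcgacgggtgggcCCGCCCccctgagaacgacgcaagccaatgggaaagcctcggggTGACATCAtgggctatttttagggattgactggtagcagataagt

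In these windows *Fos* holds TGACG at 129 and at 66 bases before its start, and *Batf* holds it at 98 bases. The first of these genes fell and the other rose. *Jun* holds TGACATCA at 45 bases before its start, a sequence found in 2.32% of all 32851 RefSeq promoter windows of this length. Of the 10 genes, 9 were matched, with 11 windows between them because *Jdp2* has 3. *Fosl1* had no entry in the set of promoter windows used. TGACG, searched on both strands, was present in the windows of 5 genes, namely *Fos*, *Fosb*, *Junb*, *Jdp2* and *Batf*, and in 13.3% of all windows. GGGCGG, searched on both strands, was present in 7 genes, namely *Fos*, *Fosb*, *Fosl2*, *Jun*, *Jdp2*, *Batf* and *Batf3*, and in 28.6% of all windows. In *Batf3* a pair of these matches shares bases. The complete sites TGACTCA and TGACGTCA, which occur in 2.84% and 1.36% of all windows, and the CArG box, in 0.916%, were in none of the windows of the AP-1 genes. Bases further upstream than the window were not searched, so these promoters may hold such sites there. These matches are letters in a window and not measured binding.

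The Fos family was split. *Fos*, which encodes c-Fos, gave processed signals of 14430, 19122 and 20235 in the *Ano1*fl/fl group and 5474, 4939 and 4976 in the *Ctsk-Cre;Ano1*fl/fl group. A processed signal is the brightness of a spot on a linear scale after the scanner software removed background. Every *Ctsk-Cre;Ano1*fl/fl array was dimmer than every *Ano1*fl/fl array. After quantile normalization the mean log2 signal was 13.97 ± 0.10 (SD, n = 3) against 12.46 ± 0.11 (SD, n = 3), and *Fos* fell, with a log2 difference of -1.52 ± 0.09 (SE) at a limma adjusted p of 7.09e-05, which is 2.86-fold. Of all tested genes, 2.97% had a lower difference. The probe, A_55_P2910184, lies near the 3′ end of the transcript NM_010234, from base 1991, at mm9 chr12:86818118-86818177 on the plus strand.

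*Fosb*, a further Fos gene induced by growth factors, was dim on every array. Its normalized log2 signals were 5.22, 5.08 and 4.71 in the *Ano1*fl/fl group and 4.94, 5.06 and 5.08 in the *Ctsk-Cre;Ano1*fl/fl group, so the groups overlapped. The log2 difference was 0.02 ± 0.14 (SE) at a limma adjusted p of 0.910. This probe, A_55_P2113051, lies at mm9 chr7:19888168-19888227 on the minus strand, and the other *Fosb* probe, A_55_P2744102, was below background on all 6 arrays.

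*Fosl1* encodes Fra-1, a Fos protein that lacks the strong activation domain of c-Fos and whose gene is itself a target of c-Fos in osteoclast precursors. Its processed signals were 30.3, 42.2 and 37.9 in the *Ano1*fl/fl group and 196, 141 and 109 in the *Ctsk-Cre;Ano1*fl/fl group. The lowest array of the second group was brighter than the highest of the first. The normalized log2 signal was 5.10 ± 0.16 (SD, n = 3) against 7.30 ± 0.36 (SD, n = 3), a log2 difference of 2.20 ± 0.19 (SE) at a limma adjusted p of 0.000301 or 4.59-fold, and 95.1% of tested genes lay below it. *Fosl1* was dim in the *Ano1*fl/fl group. The lowest signal well above background was 14.98 to 18.39 on the 6 arrays. The log2 difference of *Fosl1* was 1.19 with normexp, another background correction, which here added an offset of 50 to every signal. An added constant makes log2 differences of dim probes smaller. From the series matrix, which carries no background subtraction, the difference was 1.52, and *Fosl1* stayed called in both. The probe, A_51_P308796, lies at mm9 chr19:5455496-5455555 on the plus strand.

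*Fosl2* encodes Fra-2, a Fos protein that is made later after a stimulus and lasts longer than c-Fos. Its brighter probe, A_55_P2803815, gave processed signals of 2843, 3757 and 3852 in the *Ano1*fl/fl group and 5985, 6475 and 6157 in the *Ctsk-Cre;Ano1*fl/fl group, which did not overlap. The log2 difference was 1.105 ± 0.12 (SE) at a limma adjusted p of 0.000672, or 2.15-fold. The dimmer probe, A_51_P507242, sits some way upstream in the same transcript, from base 738 rather than 5726, and read 28.8, 41.1 and 40.9 against 49.3, 64.4 and 50.8. Its log2 difference was 0.79 ± 0.19 (SE; adjusted p = 0.0142 in a limma fit over 31848 probes). Both probes were therefore higher in the *Ctsk-Cre;Ano1*fl/fl group. They lie at mm9 chr5:32460076-32460135 and chr5:32455088-32455147 on the plus strand.

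Within the Fos family the differences thus ran in opposite directions on the same arrays. The log2 ratio of *Fosl1* over *Fos* on an array was higher by 3.71 in the *Ctsk-Cre;Ano1*fl/fl group, and that of *Fosl2* over *Fos* was higher by 2.62. The ratio of *Fosb* over *Fos* was higher by 1.54. The groups did not overlap in any of these ratios. Each gave p = 0.1 in a two-sided exact permutation test over the 6 arrays, which is the smallest p that 3 arrays against 3 allow, and an adjusted p of 0.1 over the 9 ratios computed. A ratio of this kind shows unequal change and not which gene changed, and the 9 pairs were chosen after the values of the genes were seen.

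In the Jun family *Jund* and *Junb* were called and *Jun* was not. *Jun*, which encodes c-Jun, the usual partner of c-Fos, had processed signals of 15517, 20431 and 19343 in the *Ano1*fl/fl group and 14724, 13039 and 14570 in the *Ctsk-Cre;Ano1*fl/fl group. The normalized log2 signals, 13.97, 14.10 and 13.98 against 13.88, 13.96 and 13.93, did not overlap either, but they came close together. The log2 difference was -0.09 ± 0.07 (SE) at a limma adjusted p of 0.313, so *Jun* did not pass the test. Its probe, A_55_P2158990, lies at mm9 chr4:94716928-94716987 on the minus strand.

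*Junb*, whose product often restrains c-Jun and is needed for osteoclast formation, was bright on all arrays. Its processed signals were 33767, 48207 and 47913 in the *Ano1*fl/fl group and 46081, 39018 and 44346 in the *Ctsk-Cre;Ano1*fl/fl group, and these overlapped. After quantile normalization they no longer did, with log2 signals of 15.07, 15.35 and 15.32 against 15.54 on each of the other 3 arrays. The log2 difference was 0.29 ± 0.09 (SE) at a limma adjusted p of 0.0367, or 1.22-fold. The call was lost in 9 of 17 other settings, among them 75th percentile scaling, where the difference was 0.19 (limma adjusted p = 0.144), and without 5 of the 6 arrays in turn. The exception was the second *Ano1*fl/fl array. Over all these settings the adjusted p ran from 0.00879, for another probe, to 0.144.

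A second *Junb* probe, A_55_P2011106, lies further upstream in the transcript and was dimmer. It read 273, 445 and 389 against 628, 421 and 475, and the processed signals overlapped. Its normalized log2 difference was 0.68 ± 0.14 (SE; adjusted p = 0.00879 in the limma fit over all probes), or 1.60-fold. The brighter probe, A_51_P159194, and this one lie at mm9 chr8:87500843-87500902 and chr8:87501881-87501940 on the minus strand. The last *Junb* probe, A_55_P2731021, was below background on all 6 arrays.

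*Jund* encodes JunD, the Jun protein that is present in resting cells and least dependent on a stimulus. Its processed signals were 17998, 18972 and 20394 in the *Ano1*fl/fl group and 32373, 30106 and 31918 in the *Ctsk-Cre;Ano1*fl/fl group. The groups lay well apart, with a log2 difference of 1.00 ± 0.08 (SE) at a limma adjusted p of 0.000211. The fold was 1.999, just short of the threshold of 2-fold. A second probe, A_51_P357744, gave 12436, 15647 and 15691 against 23965, 20320 and 24785, with a log2 difference of 0.94 ± 0.08 (SE; adjusted p = 0.000214 in the limma fit over all probes). The representing probe, A_55_P2892246, and the second one lie at mm9 chr8:73224302-73224361 and chr8:73224436-73224495 on the plus strand. The starts of both probes lie close together near the 3′ end of the transcript, so they do not sample separate regions of it.

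On the same array the log2 ratio of *Jund* over *Jun* was higher by 1.09 in the *Ctsk-Cre;Ano1*fl/fl group, that of *Jund* over *Junb* by 0.71 and that of *Junb* over *Jun* by 0.38. None of the 3 ratios overlapped between groups, and each had the same exact permutation p of 0.1 as those of the Fos family.

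Taken probe by probe, 13 of the 15 AP-1 probes passed the filter. Of these, 9 were higher and 1 was lower in the limma fit over all probes, beside 21.8% and 30.6% of the 31848 probes tested.

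**Figure D2:**
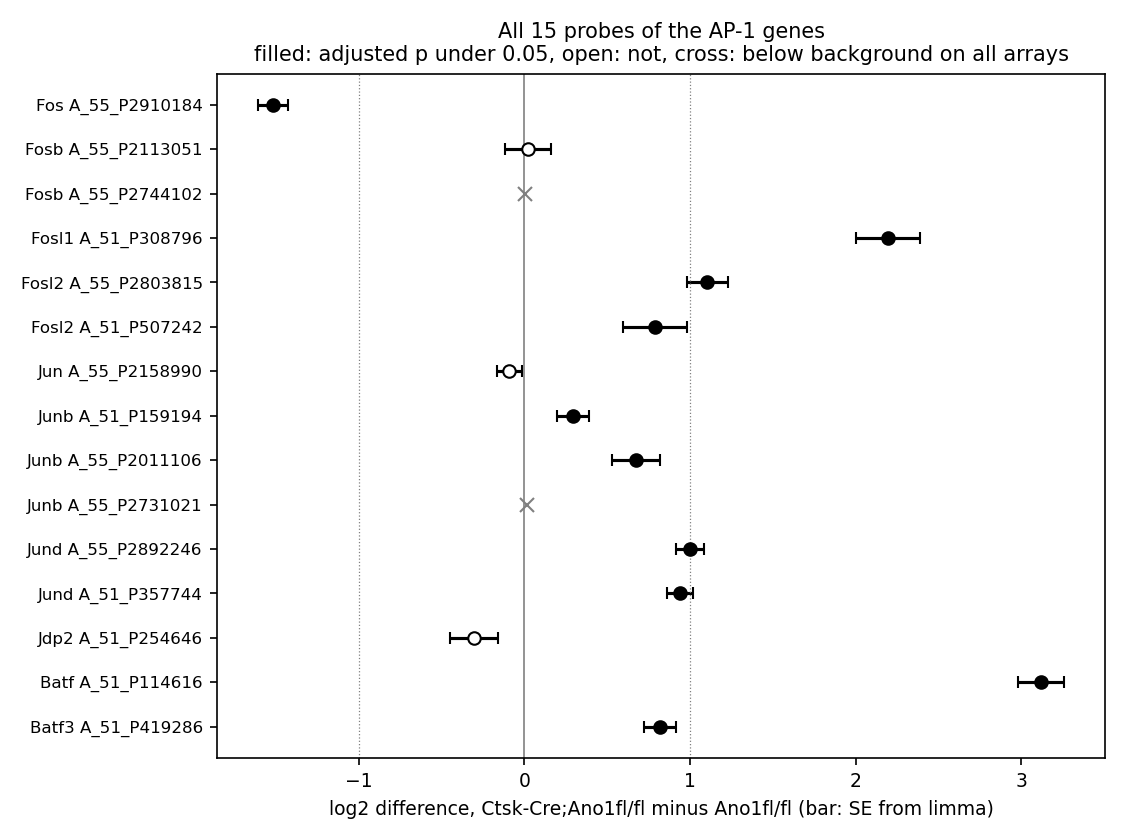
The horizontal axis gives the log2 difference of each of the 15 AP-1 probes, *Ctsk-Cre;Ano1*fl/fl minus *Ano1*fl/fl, with the standard error of limma as a bar. Filled points had an adjusted p under 0.05, open points did not, and crosses mark the 2 probes below background on all arrays. The *Fosl2*, *Junb* and *Jund* probes above background lie on the same side of 0 within each gene, and *Fos* alone is filled on the lower side.

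*Batf* gave the largest difference of the 10 genes. Its product lacks an activation domain of its own, pairs with Jun proteins and acts with the factors IRF4 and IRF8. The processed signals were 1726, 2158 and 2219 in the *Ano1*fl/fl group and 15758, 11067 and 18301 in the *Ctsk-Cre;Ano1*fl/fl group. The dimmest array of the second group was several times as bright as the brightest of the first. The normalized log2 signal was 10.87 ± 0.04 (SD, n = 3) against 13.99 ± 0.27 (SD, n = 3), a log2 difference of 3.12 ± 0.14 (SE) at a limma adjusted p of 2.75e-05 or 8.70-fold. In all, 97.4% of tested genes lay below it. Leaving out each array in turn gave 2.98 to 3.25.

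*Batf3*, the relative of *Batf* that is required for a class of dendritic cells, was higher too. It read 756, 1070 and 1124 in the *Ano1*fl/fl group against 1572, 1352 and 1488, and the groups did not overlap. The log2 difference was 0.82 ± 0.09 (SE) at a limma adjusted p of 0.000815, or 1.76-fold. The log2 ratio of *Batf* over *Batf3* on an array was higher by 2.30 in the *Ctsk-Cre;Ano1*fl/fl group, again without overlap and with an exact permutation p of 0.1. The probes A_51_P114616 of *Batf* and A_51_P419286 of *Batf3* lie at mm9 chr12:87049872-87049929 and chr1:192932528-192932587 on the plus strand.

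*Jdp2* encodes a repressor that pairs with Jun proteins and takes part in osteoclast formation. Its normalized log2 signals were 14.17, 14.66 and 14.49 in the *Ano1*fl/fl group and 14.02, 14.29 and 14.09 in the *Ctsk-Cre;Ano1*fl/fl group, which overlapped. The log2 difference was -0.30 ± 0.15 (SE) at a limma adjusted p of 0.128. Without the first *Ano1*fl/fl array, the lowest of its group, the difference was -0.44 and was called (limma adjusted p = 0.0317, against 0.0317 to 0.320 over all settings). The probe, A_51_P254646, lies at mm9 chr12:86980657-86980716 on the plus strand.

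*Fos*, *Jdp2* and *Batf* are consecutive protein-coding genes on chromosome 12 in the RefSeq order. The mm9 starts of their probes lie 163 kb apart for *Fos* and *Jdp2* and 69.2 kb apart for *Jdp2* and *Batf*. Along this stretch the log2 difference went from -1.52 for *Fos* through -0.30 for *Jdp2* to 3.12 for *Batf*. The log2 ratio of *Batf* over *Fos* on an array was higher by 4.64 in the *Ctsk-Cre;Ano1*fl/fl group and that of *Batf* over *Jdp2* by 3.42, both without overlap and with an exact permutation p of 0.1.

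**Figure D3:**
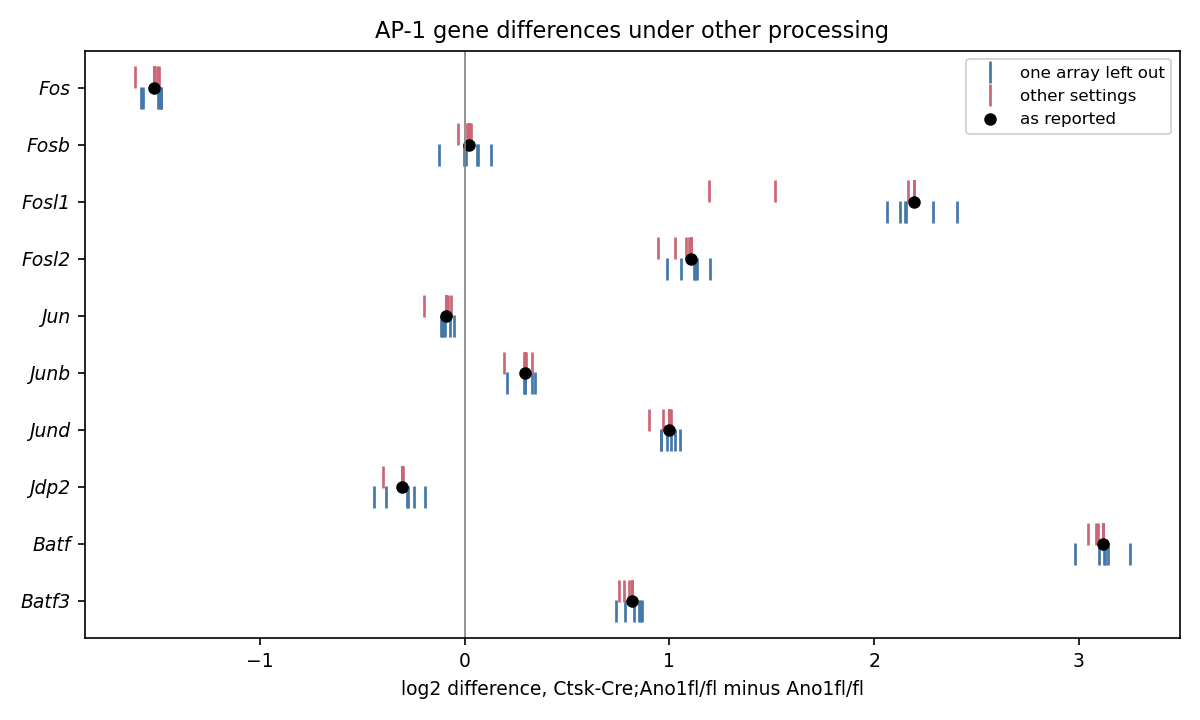
For each AP-1 gene the horizontal axis gives the log2 difference, *Ctsk-Cre;Ano1*fl/fl minus *Ano1*fl/fl, as reported (black point), with 1 array left out (blue marks) and under the other settings of processing (red marks), all for 1 value per gene. *Fos* stays between -1.61 and -1.48 and *Batf* between 2.98 and 3.25, *Fosl1* moves down to 1.19, and *Fosb* lies on both sides of 0.

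Genes of other bZIP factors differed in both directions. Of 35 tested, 18 were higher and 8 lower, a called share of 74.3% beside 52.4% of all tested genes. The median log2 difference was 0.31, and 0.20 to 0.33 over other settings of processing. The largest rises were those of *Maff*, a small Maf protein without an activation domain, by 3.11 ± 0.17 (SE), of *Bach2*, a repressor best known from lymphocytes, by 2.45 ± 0.24 (SE), and of *Ddit3*, which encodes the stress factor CHOP, by 1.75 ± 0.08 (SE). The limma adjusted p was 5.13e-05 for *Maff*, 0.000429 for *Bach2* and 2.98e-05 for *Ddit3*.

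MAP kinase cascades phosphorylate Jun proteins and the factors that switch on *Fos*. Of 38 tested genes of these cascades, 6 were higher and 12 lower, a called share of 47.4% with a median of -0.07, both close to the values over all tested genes. *Mapk11*, a p38 kinase, was higher by 1.43 ± 0.11 (SE), *Map3k8*, a kinase upstream of ERK, by 1.11 ± 0.07 (SE) and *Rps6ka2* by 1.04 ± 0.11 (SE). As means over all their probes *Map3k8* was at 0.29 and *Rps6ka2* at 0.56, and *Rps6ka2* was at 0.64 with normexp correction, all still called. *Rps6ka5*, a kinase downstream of ERK and p38, was lower by -1.41 ± 0.09 (SE). *Rps6ka3*, which encodes the kinase RSK2 that phosphorylates c-Fos, was lower by -2.38 ± 0.57 (SE) with a wide spread in the *Ctsk-Cre;Ano1*fl/fl group. Its difference was -1.70 without the first array of that group and -0.71 as a mean over all its probes, and its call was lost without the second *Ano1*fl/fl array (limma adjusted p = 0.0503, against 0.00315 to 0.0574 over all settings). Of 20 tested factors that act at the *Fos* and *Jun* promoters, 4 were higher and 4 lower, none of them by more than 2-fold, with a median of 0.00.

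Among other immediate early genes most of those called were higher, whereas *Fos* was lower, and the cause was not tested. Of 32 tested, 18 were higher and 6 lower, 12 and 1 of these by more than 2-fold, with a median of 0.48, so 24 of the 32 were called. *Ctgf* and *Cyr61*, which encode secreted matrix proteins, were higher by 5.68 ± 0.23 (SE) and 4.95 ± 0.26 (SE), and the nuclear receptor gene *Nr4a1* by 3.38 ± 0.16 (SE). *Arc* was lower by -2.21 ± 0.13 (SE). *Egr1* and *Egr3*, named here after their values were seen because they are often induced together with *Fos*, were higher by 3.14 and 3.25. *Cyr61* moved to 3.24 and *Arc* to -1.42 with normexp correction, and both stayed called.

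Genes on the way from the RANKL receptor RANK to c-Fos and NFATc1 were split. Of 22 tested, 8 were higher and 6 lower, a called share of 63.6% beside 52.4% of all tested genes. The median was 0.05, and -0.13 to 0.12 over other settings of processing, so its sign is not settled. The kinase gene *Src* was higher by 2.01 ± 0.15 (SE) and the coactivator gene *Ppargc1b* by 1.12 ± 0.12 (SE), and no gene of this list was lower by more than 2-fold. By contrast all 12 osteoclast genes with known AP-1 or NFATc1 sites were higher, beside 23.4% of all tested genes. By more than 2-fold 10 of them were higher, beside 9.88% of all tested genes, and the list median was 2.85. Of these 12 genes, 9 also stand in the list of 10 osteoclast markers, so the counts of the lists are not independent. The calcitonin receptor gene *Calcr*, which was above background on only 2 of the 3 *Ano1*fl/fl arrays, was higher by 8.89 ± 0.19 (SE), *Oscar*, a costimulatory receptor gene, by 6.48 ± 0.17 (SE), and *Mmp9*, a collagen-degrading protease gene, by 4.36 ± 0.17 (SE). The difference of *Calcr* was 6.72 with normexp correction. *Fos* fell in the group in which these genes rose.

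Of 35 classical AP-1 target genes, 22 were higher and 4 lower, with a median of 0.67. The called share was 74.3%, beside 52.4% of all tested genes. In this list 4 genes were below background on all arrays of 1 group. They passed the filter only through the group in which they were brighter, so their direction was fixed by the filter. The chemokine genes *Cxcl1* and *Cxcl2* were higher by 5.67 ± 0.22 (SE) and 4.84 ± 0.19 (SE), and *Ptgs2*, which encodes the inducible cyclooxygenase, by 4.73 ± 0.32 (SE). *Ccnd1*, which encodes cyclin D1, was lower by -2.45 ± 0.26 (SE). *Krt18* was below background on all *Ctsk-Cre;Ano1*fl/fl arrays and was at least 2.0025-fold lower there, against the lowest signal well above background. This limit holds for the background-subtracted signals used here, and the difference of *Krt18* was smaller, at -0.45 with normexp correction and -0.72 from the series matrix, though it stayed called. Of 20 genes for cofactors and turnover of AP-1, 3 were higher and 5 lower, a called share of 40.0% beside 52.4% of all tested genes. The median was -0.07, and -0.21 to -0.02 over other settings of processing. Among them *Irf4*, whose product binds DNA together with BATF, was higher by 3.48 ± 0.27 (SE), and *Zfp36l2*, an mRNA decay factor, was lower by -1.01 ± 0.11 (SE). *Irf8*, which encodes the other factor named above as acting with BATF, had 0.23 and was not called (limma adjusted p = 0.336).

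**Figure D4:**
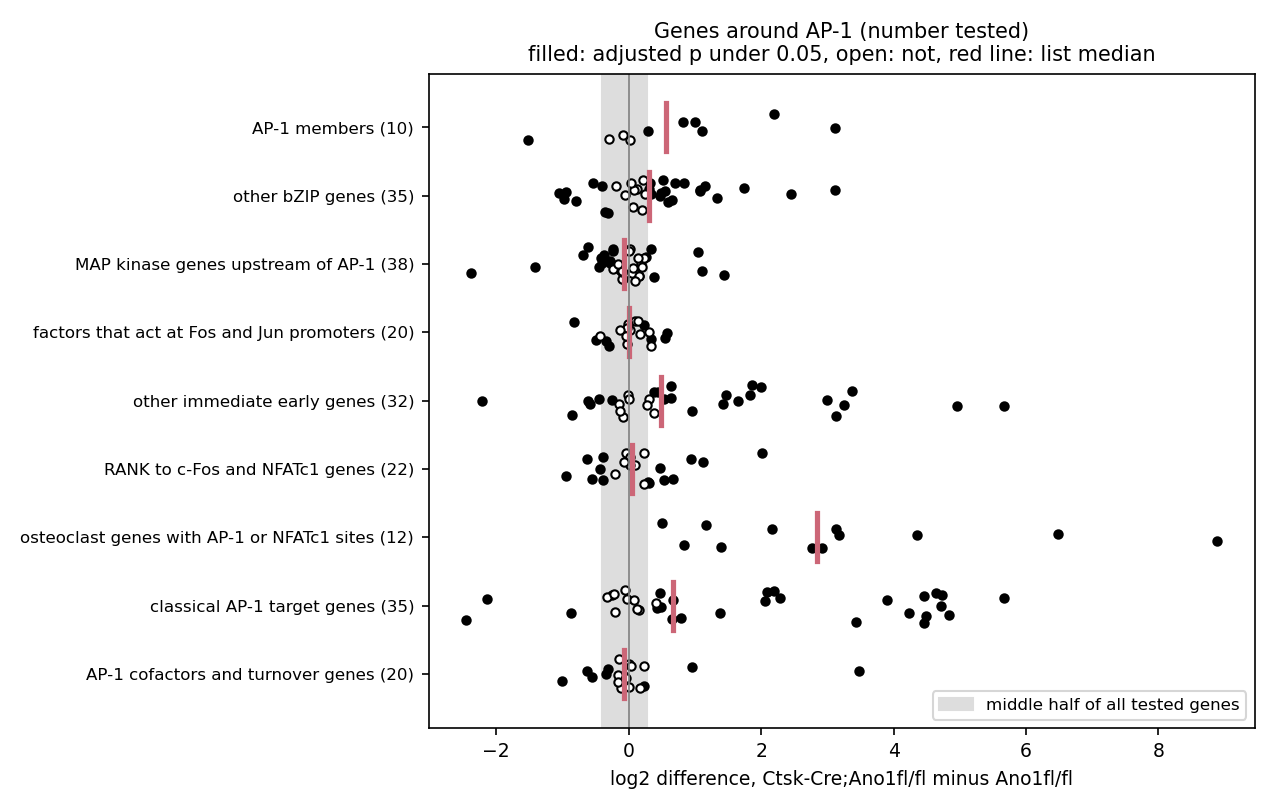
Each point is 1 tested gene of a list, placed by its log2 difference, *Ctsk-Cre;Ano1*fl/fl minus *Ano1*fl/fl, on the horizontal axis. Filled points had an adjusted p under 0.05, the red line is the median of the list, and the grey band holds the middle part of all tested genes, from -0.40 to 0.28. The AP-1 genes spread from -1.52 to 3.12, the factors at the *Fos* and *Jun* promoters stay near the band, and the osteoclast genes lie wholly to its right.

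Marker genes of several cell types moved with the groups. Their counts stand beside 23.4% of all tested genes that were higher and 29.0% that were lower. In bulk RNA fewer cells of a type and less RNA per cell cannot be told apart. Each of the 10 osteoclast markers was above background on at least 1 array, and all were higher in the *Ctsk-Cre;Ano1*fl/fl group, with a summed signal of 187688 to 203652 in the *Ano1*fl/fl group and 558834 to 632370 in the other. Of 19 tested stromal and osteoblast markers, 15 were higher and 2 lower, with sums of 23604 to 25976 against 95500 to 141186, and *Ibsp* was above background on no array. Among the higher ones, 2 were below background on all *Ano1*fl/fl arrays and so passed the filter only through the brighter group. Of 7 tested B cell markers, 6 were higher and 1 lower, with sums of 38005 to 42483 against 87768 to 118388. Neutrophil markers went the other way, with 3 of 14 higher, 9 lower and sums of 384386 to 402419 against 290246 to 341149, and so did markers of mast cells and basophils, with 6 of 8 tested lower, none higher and sums of 8276 to 10490 against 1505 to 4391. The part of these cells in the AP-1 differences was not tested.

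Markers of further cell types were counted in the same way. Of 12 tested markers of macrophages and monocytes, 3 were higher and 4 lower, with sums of 524212 to 539172 against 574074 to 641837 and *Cd163* above background on no array. Dendritic cell markers gave 3 higher and 2 lower of 9 tested, and their sums overlapped, at 64840 to 75011 against 60198 to 88203, with *Xcr1* above background on no array. Of 11 tested T and NK cell markers, 4 were higher and 2 lower, with overlapping sums of 4087 to 4627 against 4402 to 6994 and *Trac* above background on no array. Of 7 tested endothelial markers, 1 was higher and 2 lower, with sums of 6749 to 8327 against 3500 to 4083, and of 3 tested erythroid markers, 1 was higher and 2 lower, with sums of 7706 to 9965 against 13576 to 15363. That sum rose through *Tfrc*, the transferrin receptor gene that many cell types use, with a log2 difference of 2.37, whereas *Hba-a1* and *Epor* had -1.09 and -0.54. *Tek* and *Tie1* among the endothelial markers, *Mcpt4* and *Cma1* among those of mast cells, and *Hbb-b1*, *Alas2*, *Klf1* and *Ahsp* among the erythroid ones were above background on no array. The part of these lists in the AP-1 differences was not tested either.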

How the data were processed

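RNA of 6 osteoclast cultures was measured on 1-colour Agilent mouse arrays. The authors deposited the scanner's spot intensities, made with Agilent Feature Extraction 10.7.1.1 per the file headers, and a series matrix of intensities that equals the median brightness of each spot. Their methods name quantile normalization. Processed signals, from which the software had subtracted background, were quantile normalized on the log2 scale with limma 3.58.1 in R 4.3.3 (files read with data.table, version 1.17.8), and the spots of each probe were averaged. Control and outlier spots were left out, as were 14 probes with a missing value. Each gene was represented by its brightest probe, and was tested where the software marked that probe well above background throughout 1 group of 3 or both. Groups came from the sample titles, and the study's methods give 1 mouse per array. The precision is limited by the 3 arrays per group. Sequences and ratios were handled in Python 3.11.15 with pandas 2.3.3 and plots drawn with matplotlib 3.10.9. The fit was tested on simulated data. The array files supplied gene names and mm9 positions.

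The AP-1 genes and all lists were chosen with earlier results of these data known. All AP-1 genes are named, with every probe. From each other list that is not of markers, up to 3 genes with the largest rise and up to 3 with the largest fall are named among those past limma's threshold and 2-fold, without overlap between groups and above background throughout the brighter group. Alternatives changed the scaling, the background correction, the source of values, the filter, the probe rule, the test, the replicate block and the arrays used. Some genes of the lists are not reported by name here.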

Additional observations from a re-analysis of the deposited data

How the results depend on the processing

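Over 16 or 17 other settings per gene, *Fos*, *Fosl1*, *Fosl2*, *Jund*, *Batf* and *Batf3* kept their direction and stayed past the threshold, and *Jun* kept its direction and stayed short of it (limma adjusted p from 0.111 to 0.631, with the methods' t-test included in the range). The ranges were -1.61 to -1.48 for *Fos*, 1.19 to 2.40 for *Fosl1*, 0.79 to 1.20 for *Fosl2*, 0.90 to 1.05 for *Jund*, 2.98 to 3.25 for *Batf*, 0.74 to 0.87 for *Batf3*, -0.44 to -0.19 for *Jdp2* and, its second probe included, 0.19 to 0.68 for *Junb*. *Fosb* changed sign to -0.0305 with the series matrix values and lay between -0.12 and 0.13 with 1 array left out, -0.01 without the third *Ctsk-Cre;Ano1*fl/fl array. The cause was not tested. The number of lower AP-1 genes was 1 or 2 with 1 array left out, the second being *Jdp2*. Asking for more than 2-fold as well left 3 higher AP-1 genes, and 2039 higher and 1485 lower genes of all tested, which follows from the stricter rule.

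75th percentile scaling moved the median of all genes to -0.12, and *Junb* was the 1 AP-1 gene that lost its call there. The methods' t-test gave an unadjusted p under 0.05 for 7 AP-1 genes and an adjusted one for 6, beside 11541 and 9674 of the 20645 tested genes. Same-numbered arrays of the groups did not deviate together, with correlations of 0.00, -0.06 and -0.08. Arrays of unlike number correlated at -0.12 to 0.18. Such values from 3 arrays per group cannot exclude a pairing, for example by litter. The main fit left the arrays unpaired. With the replicate block 5 AP-1 genes were higher and 1 lower, as *Junb* lost its call (limma adjusted p = 0.0692), and 4200 genes were higher and 5079 lower. Of 373 values of the 25 genes outside AP-1 that the naming rule picked, 371 kept their direction and call. The other 2 are of *Rps6ka3*, which fell short with the methods' t-test (adjusted p = 0.0574) and without the second *Ano1*fl/fl array. The signals of *Fosb* and, in the *Ano1*fl/fl group, of *Fosl1* were low over background.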
